A study of Homo sapiens with 2 samples.

Results

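The interferon response and the class I antigen presentation pathway were examined in cells labelled BT549, a line from a triple-negative breast cancer. The genes were taken by symbol from a fixed list of interferon-stimulated genes, interferon regulatory factors, interferon receptors, a nucleic acid sensor and genes of class I presentation, and all 42 were found among the 43337 genes of the deposited table. Each of the 2 groups was 1 library of cells that, by the series design text, overexpressed SIK1, a serine/threonine kinase of the AMPK-related family. One construct was wild-type (WT) and the other was S435D, in which aspartate takes the place of a serine. Both groups therefore carried a SIK1 construct, and cells without one were not analysed here. The labels name no clone, passage, treatment or time, and no interferon treatment. Since each construct had 1 library (called WT and S435D hereafter), nothing shows the spread between replicates; no test was run, and every interval covers counting error only.

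Levels are in RPKM, reads divided by gene length and by the reads assigned to all listed genes. The libraries held 22366506 (WT) and 23520828 (S435D) assigned reads, of which the 42 genes took 0.193% and 0.190%. A gene was called expressed if its 2 levels averaged 1 RPKM or more, which 13290 genes of the table did. The label was read against marker genes. Of 11 markers of a mesenchymal-like breast cancer line, 7 reached 1 RPKM, led by VIM at 116 RPKM with WT and 113 with S435D, and their summed level was 144 and 139.5 RPKM. The other 4 did not: CD44 had 8 reads in each library, AXL had 17 and 20 reads, CAV2 had 79 and 67, and CAV1 was at 0.964 and 0.989 RPKM. Of the breast receptors, ESR1 had 1 and 0 reads and PGR 0 and 0, while ERBB2 was at 10.6 and 10.05 RPKM. Of 5 epithelial genes, 3 were expressed, with KRT8 at 45.5 and 47.7 RPKM and a sum of 86.2 and 92.1 RPKM. Of 6 genes typical of embryonic kidney and neural-type lines, 4 were expressed, led by NEFM at 87.7 and 82.8 RPKM, with a sum of 133 and 124.5 RPKM. Of 5 leukocyte genes, 2 were expressed (sum 5.09 and 5.12 RPKM), and PTPRC, the pan-leukocyte antigen, had 0 reads in both libraries. The identity of the cells thus rests on the label, several markers of the labelled line being near 0 in both libraries, and its part in the levels below was not tested.

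Interferons are cytokines that cells secrete when they sense viral nucleic acid. Type I interferons bind a receptor made of IFNAR1 and IFNAR2 and type II interferon binds IFNGR1 and IFNGR2. The bound receptors activate JAK kinases and STAT factors, which with IRF9 form the factor ISGF3. ISGF3 and IRF proteins bind the interferon-stimulated response element (ISRE) in the promoters of antiviral genes and of many class I genes, and STAT dimers bind the gamma-activated site (GAS). Class I presentation loads peptides, carried into the endoplasmic reticulum by the transporter TAP1-TAP2, onto HLA heavy chains paired with B2M. Tumour cells often differ in how active this pathway is at rest.

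The RefSeq promoter windows (GRCh38.p14, 250 bases before to 50 after the annotated start) of 5 members are shown because they span the range of levels found: ISG15, the highest member outside class I presentation, IFIT1 and TAP2, the members with the lowest log2 ratio, MX1, with 6 and 5 reads, and HLA-C, the most abundant member. They lie at chr1:1013247-1013546, plus strand (ISG15), chr10:89392373-89392672, plus strand (IFIT1), chr21:41420308-41420607, plus strand (MX1), chr6:32838690-32838989, minus strand (TAP2) and chr6:31272043-31272342, minus strand (HLA-C), and each reads 5′ to 3′ along its gene. Capitals mark the ISRE letters on either strand, which are GAAA, 2 bases of any kind and GAAA again.
ISG15: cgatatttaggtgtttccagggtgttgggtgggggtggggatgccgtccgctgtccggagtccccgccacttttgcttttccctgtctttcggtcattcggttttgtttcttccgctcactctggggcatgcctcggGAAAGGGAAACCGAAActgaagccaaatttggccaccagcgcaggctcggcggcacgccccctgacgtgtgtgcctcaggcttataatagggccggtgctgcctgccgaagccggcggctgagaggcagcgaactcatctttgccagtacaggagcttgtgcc
IFIT1: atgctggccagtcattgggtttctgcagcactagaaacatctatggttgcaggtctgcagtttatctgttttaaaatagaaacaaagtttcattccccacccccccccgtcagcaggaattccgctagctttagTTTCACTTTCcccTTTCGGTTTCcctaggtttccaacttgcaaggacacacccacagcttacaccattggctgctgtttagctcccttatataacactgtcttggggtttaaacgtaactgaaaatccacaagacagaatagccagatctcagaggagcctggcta
MX1: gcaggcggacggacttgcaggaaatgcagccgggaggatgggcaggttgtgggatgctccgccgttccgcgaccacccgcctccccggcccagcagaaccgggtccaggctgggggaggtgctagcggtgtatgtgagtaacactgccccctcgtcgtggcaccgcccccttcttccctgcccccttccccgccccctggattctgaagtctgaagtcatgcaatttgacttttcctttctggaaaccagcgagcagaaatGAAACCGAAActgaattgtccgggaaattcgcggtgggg
TAP2: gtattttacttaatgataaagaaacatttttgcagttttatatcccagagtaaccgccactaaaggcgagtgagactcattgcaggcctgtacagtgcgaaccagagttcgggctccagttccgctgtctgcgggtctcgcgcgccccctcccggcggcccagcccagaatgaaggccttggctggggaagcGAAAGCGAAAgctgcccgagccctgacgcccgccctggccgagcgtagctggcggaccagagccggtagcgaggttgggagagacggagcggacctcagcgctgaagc
HLA-C: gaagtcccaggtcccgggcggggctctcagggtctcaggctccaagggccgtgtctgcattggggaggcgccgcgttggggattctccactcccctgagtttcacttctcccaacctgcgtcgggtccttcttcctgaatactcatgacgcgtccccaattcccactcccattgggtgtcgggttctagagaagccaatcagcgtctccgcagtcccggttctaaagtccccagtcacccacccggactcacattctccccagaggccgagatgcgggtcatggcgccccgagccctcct
ISG15 and IFIT1 each held 2 matches within 116 bases upstream of the start, the ISG15 pair overlapping each other. TAP2 held 1 match and MX1 1 match 11 bases after the start. This HLA-C window held no exact match, and variants of the element were not searched.

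Windows were found for 30 of the 42 members. The ISRE letters, searched on both strands with overlapping matches kept, occurred in 19 of the 30 (63.3%), against 3.57% of 35116 promoters. The GAS letters TTCNNNGAA occurred in 7 of the 30 (23.3%), against 7.66% of all promoters, and 3 of the 8 GAS matches shared bases with an ISRE match, in BST2, IFI27 and IFITM1. The members were chosen as interferon and class I genes, so these shares describe the list and not the libraries. Genes with the ISRE letters were spread over the whole range of levels. Their WT level ran from 0.0311 RPKM (MX1) to 20.6 RPKM (ISG15) with a median of 2.96, and their S435D level from 0.0247 to 23.1 RPKM with a median of 2.82. Of these 19 genes, 12 were expressed and 7 were not, and of the 11 without the letters 10 were expressed. The search took exact letters only, so this split is by letters and not by working elements. In the OAS1 and TRIM25 windows, GAAA repeats with another spacing were present and did not count. The median log2 ratio of the expressed genes was -0.071 with the letters and -0.048 without them, each a description of these windows only.

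**Figure D1:**
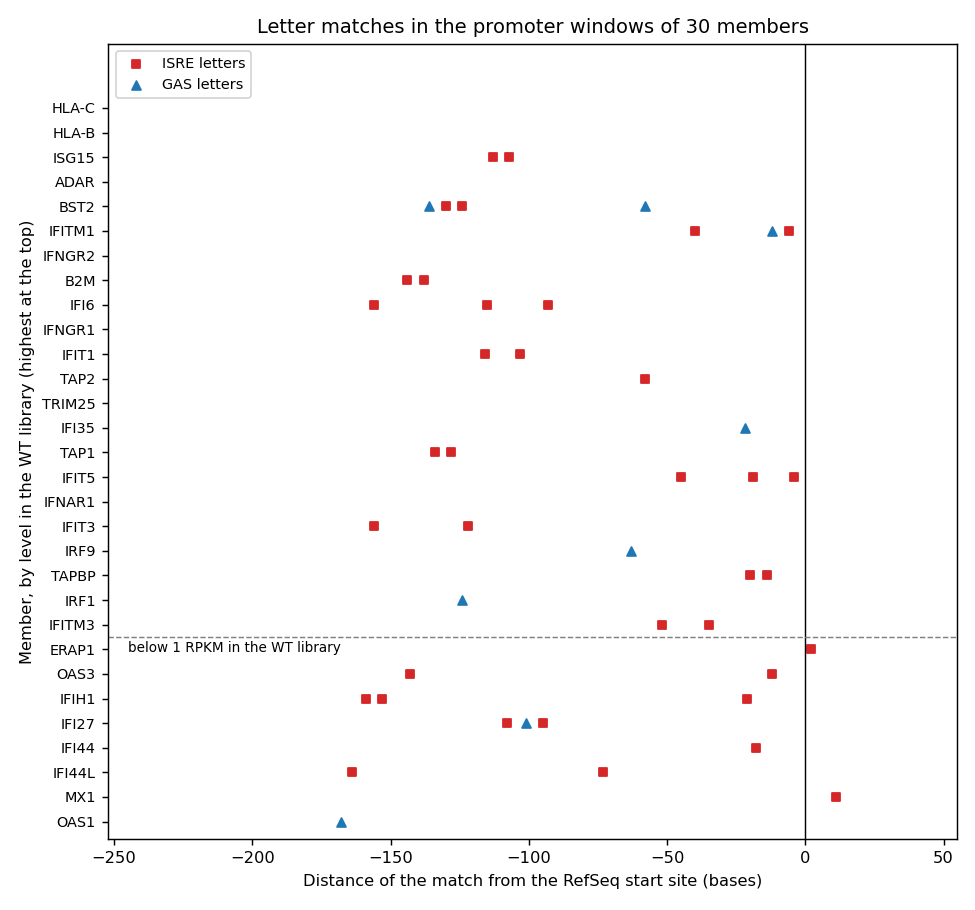
Distance from the RefSeq start site, in bases, of each ISRE match (squares) and GAS match (triangles) in the windows of 30 members, ordered by level in the WT library. Squares occur from ISG15 at 20.6 RPKM down to MX1 at 0.0311 RPKM. HLA-C and HLA-B, at the top, have no exact match, which does not show that they lack an element.

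The members differed far more from each other than between the libraries. Receptors, ADAR, ISG15, BST2 and the class I molecules had levels from 2.91 to 293 RPKM, while the MX and most OAS genes had few or no reads. Of the 42 members, 30 were expressed and 12 were not: IFI27, IFI44, IFI44L, MX1, MX2, OAS1, OAS2, OAS3, IRF7, IFIH1, NLRC5 and ERAP1. The levels spanned from 0 reads for MX2 to HLA-C at 282 RPKM with WT and 293 with S435D. HLA-C was above 98.6% of expressed genes in either library, and HLA-B above 96.8% (WT) and 96.7% (S435D) of them.

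**Figure D2:**
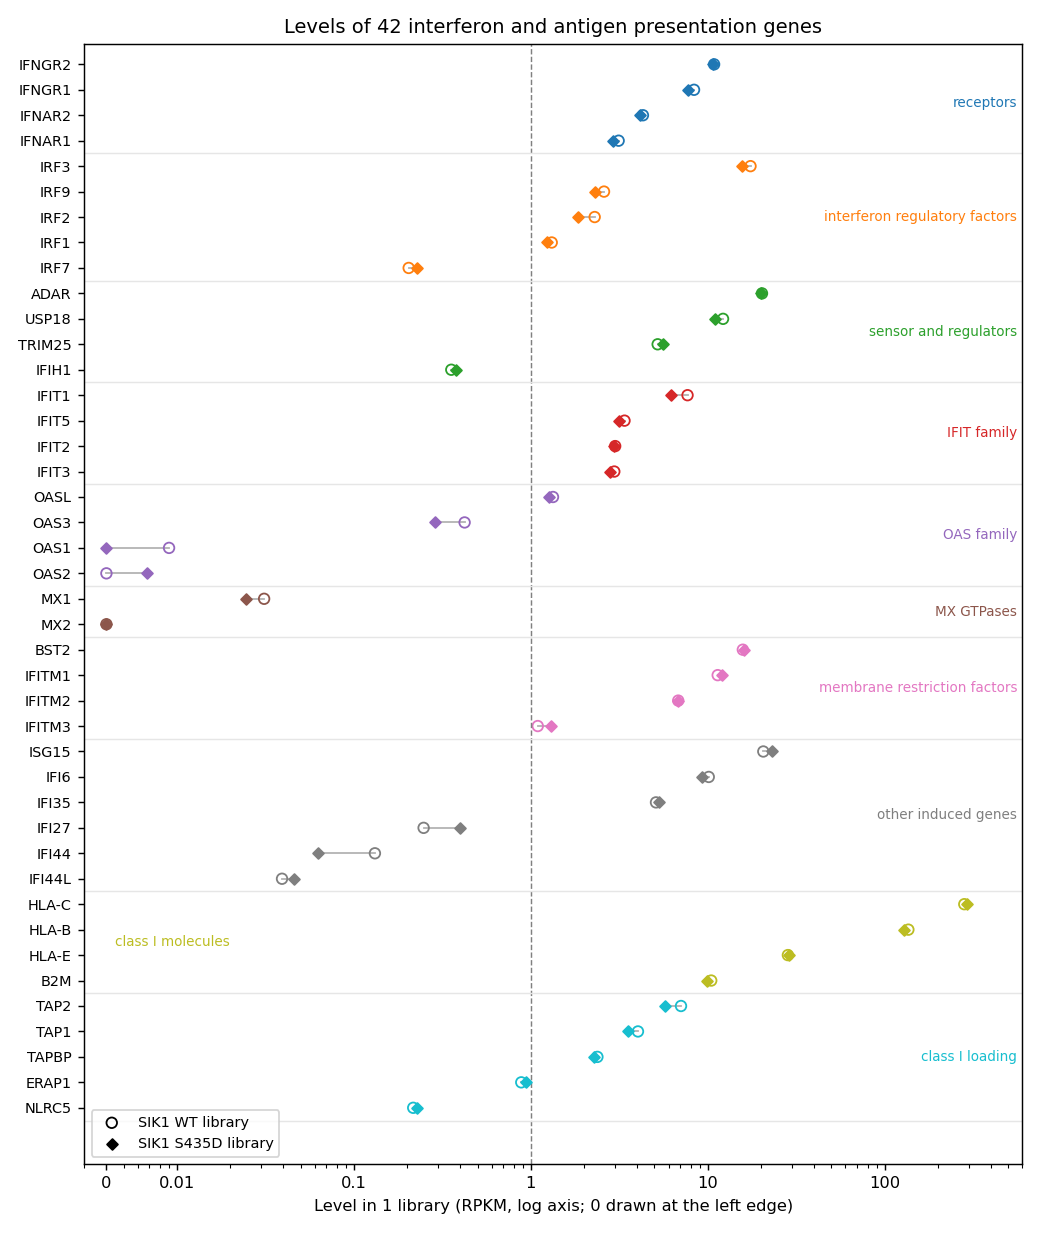
Level of each of the 42 members in RPKM (log axis, 0 at the left edge) for WT (open circles) and S435D (diamonds), grouped by role, with the dashed line at 1 RPKM. The symbols of an expressed gene lie close together, while genes differ by orders of magnitude, from MX2 at 0 to HLA-C at 282 and 293 RPKM.

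Between the libraries the members differed little. The log2 ratio, taken as S435D over WT with 0.5 RPKM added to each, ran from -0.29 (IFIT1) to 0.17 (IFITM3) over the 30 expressed members, with a median of -0.057, against a median of -0.024 over all 13290 expressed genes. Lower in the S435D library were 21 of the 30 (70%), against 57.1% of all expressed genes and 56.6% of the 9761 that are annotated as protein-coding. Among genes averaging 5 RPKM or more, 10 of 18 members were lower (55.6%) against 56.3% of all 6580 such genes, a share near the background. At a size of 1.2-fold, 2 members were lower, IFIT1 and TAP2, which is 6.67% of the members against 7.92% of all expressed genes and 3.30% of the protein-coding ones. None of the 30 was higher by 1.2-fold, against 4.43% of all expressed genes and 1.58% of the protein-coding ones. At 1.5-fold none of the 30 passed in either direction, against 1.08% of expressed genes higher and 1.59% lower (0.0512% and 0.0307% of the protein-coding ones), and at 2-fold none did, against 0.339% higher and 0.504% lower (0% and 0% of the protein-coding ones). The share of members lower by 1.2-fold thus lay below that of all expressed genes and above that of the protein-coding ones. It rests on 2 genes, and with a trimmed mean of log ratios as the scaling the count was 0. In bulk RNA, fewer cells with a transcript and less of it per cell cannot be told apart.

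**Figure D3:**
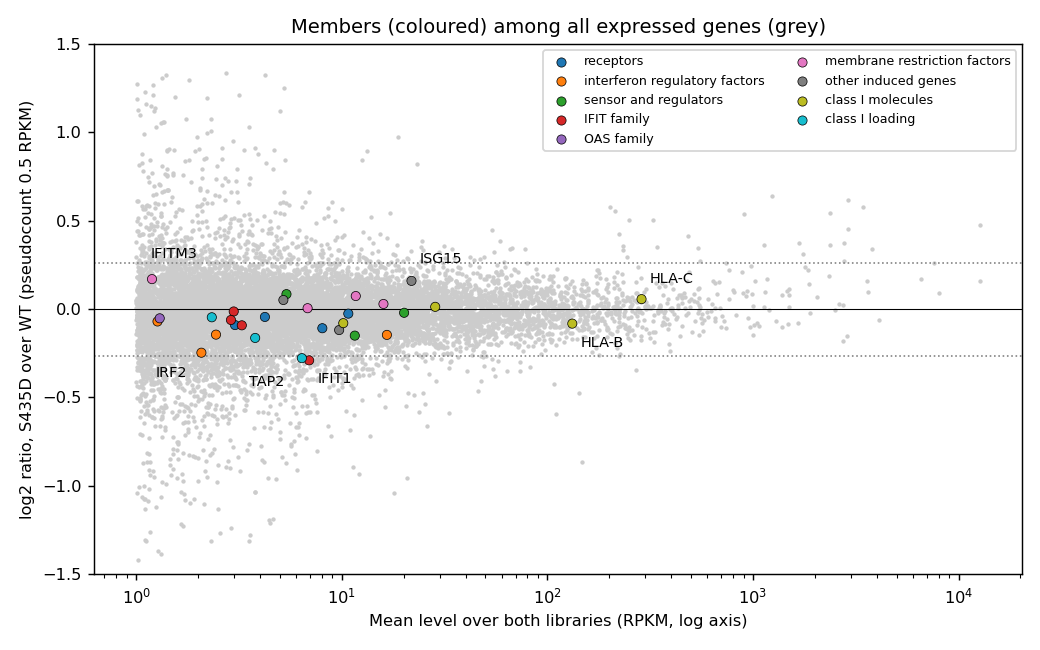
Mean level over both libraries (RPKM, log axis) against log2 ratio for all expressed genes (grey) and the expressed members (coloured by role), with dotted lines at 1.2-fold and 47 genes beyond the vertical axis not drawn. The members lie inside the grey cloud, IFIT1 and TAP2 just past the lower dotted line.

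The 4 receptor subunits were all expressed and all slightly lower with S435D, at a median log2 ratio of -0.068. IFNGR2, the signalling subunit for type II interferon, was the highest at 10.9 RPKM with WT and 10.7 with S435D (fold 0.981, 95% counting interval 0.884 to 1.09). IFNGR1, the ligand-binding subunit, was at 8.36 and 7.72 RPKM (fold 0.923, 0.811 to 1.051). For type I interferon, IFNAR2 was at 4.30 and 4.16 RPKM and IFNAR1 at 3.14 and 2.91. Both intervals include 1, and under trimmed mean scaling IFNGR2 turned to a log2 ratio of 0.0044. IFNAR1, IFNAR2 and IFNGR2 are neighbours on chromosome 21 between bases 33229901 and 33479348, while IFNGR1 lies on chromosome 6. Exons of IFNAR2 share 48.4% of their bases with other genes that held reads, mostly the antisense gene IL10RB-AS1, so its level is uncertain.

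The interferon regulatory factors are transcription factors of the pathway, and the 4 expressed ones had lower values with S435D, at a median log2 ratio of -0.15. The scalings tried shifted ratios upward by too little to turn even IRF1, the nearest to equality at -0.070. That all 4 stayed lower under them was therefore fixed in advance. IRF3, which is activated when sensors detect viral nucleic acid, was the highest, at 17.4 RPKM with WT and 15.7 with S435D (fold 0.901, 0.837 to 0.970). Exons of IRF3 share 19.4% of their bases with BCL2L12 on the other strand. IRF2 (chromosome 4, 184387713 to 184474580), which opposes IRF1 at shared sites, had 160 reads with WT and 136 with S435D, or 2.30 and 1.86 RPKM (fold 0.808, 0.638 to 1.02). With a pseudocount of 0.1 RPKM, IRF2 also passed 1.2-fold. IRF9, the DNA-binding part of ISGF3, was at 2.59 and 2.30 RPKM (fold 0.886, 0.729 to 1.08), with 48.4% of its exonic bases inside a clone-named gene on the same strand. IRF1, itself an early interferon target, was at 1.31 and 1.23 RPKM. IRF7, the amplifier of type I interferon production, had 12 and 14 reads, so that IRF3 stood 85.4 times (WT) and 69.4 times (S435D) above IRF7 per length, and 145 and 118 times with principal transcript lengths, ratios that rest on those few IRF7 reads. Summed over all 5 factors, the reads gave a fold of 0.897 (0.843 to 0.954). That sum is mostly IRF3, which held 1480 of the 2101 reads with WT and 1402 of the 1982 with S435D. The intervals of IRF1, IRF2, IRF7 and IRF9 each include 1.

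Among the sensor and the regulators, ADAR, which edits adenosines in double-stranded RNA and so keeps sensors quiet, was the highest at 20.3 RPKM with WT and 19.95 with S435D (fold 0.985, 0.942 to 1.03). TRIM25, a ubiquitin ligase that activates the sensor RIG-I, was at 5.21 and 5.56 RPKM. USP18, which removes ISG15 from proteins and damps the type I receptor, was at 12.2 and 10.9 RPKM (fold 0.897, 0.797 to 1.01). Of the 50-base words in USP18 transcripts, 23.4% also occur in other genes, chiefly in USP41, which held 0 reads with WT and 1 with S435D. IFIH1, the sensor MDA5 for long double-stranded RNA, had 36 and 40 reads. The median log2 ratio of the 3 expressed genes was -0.021, and centring and trimmed mean scaling turned it to 0.0030 and 0.0099.

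The IFIT genes, whose proteins bind foreign RNA and block its translation, lie together on chromosome 10 and all 4 were expressed. IFIT1 (89392546 to 89406486, plus strand) had 793 reads with WT and 672 with S435D, or 7.69 and 6.19 RPKM (fold 0.806, 0.726 to 0.894). Its neighbours had ratios closer to equality. IFIT5 was at 3.39 and 3.14 RPKM (fold 0.929, 0.789 to 1.09), IFIT2 at 2.998 and 2.96, and IFIT3 at 2.96 and 2.82, with 175 reads in each library. All 4 values were lower in the S435D library as deposited, and IFIT2 turned to a log2 ratio of 0.010 when centred and 0.014 under trimmed mean scaling. IFIT1 was no longer past 1.2-fold under trimmed mean scaling, at a log2 ratio of -0.26.

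The OAS enzymes make the second messenger that activates RNase L, and the MX proteins are GTPases that trap viral components. They had the fewest reads of all role groups, 184 and 162 for OAS and 6 and 5 for MX. OASL, an OAS-like protein without that enzyme activity, was the only expressed one, at 1.33 and 1.27 RPKM with 105 reads in each library (fold 0.951, 0.719 to 1.26). OAS3 had 78 reads with WT and 56 with S435D, below the filter at 0.423 and 0.289 RPKM (fold 0.683, 0.476 to 0.975), an interval that covers counting error only and does not reach 1. OAS1 had 1 and 0 reads and OAS2 had 0 and 1. MX1 had 6 reads with WT and 5 with S435D (fold 0.792, 0.191 to 3.12), and MX2 had 0 reads in both, which allows up to 3 reads in each. At the counts of OAS1, OAS2, MX1 and MX2 no difference between the libraries was detectable.

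The membrane restriction factors block viral entry or release, and their 4 values were higher with S435D as deposited, at a median log2 ratio of 0.051. The other scalings moved these ratios upward, so none could turn them. Medians were 0.063 without mitochondrial reads in the totals, 0.075 when centred and 0.082 under trimmed mean scaling. The counting intervals of all 4 include 1. BST2, or tetherin, which holds budding virus at the cell surface, was the highest at 15.8 RPKM with WT and 16.1 with S435D (fold 1.02, 0.888 to 1.17). IFITM1 was at 11.4 and 12.01 RPKM and IFITM2 at 6.81 and 6.83, while IFITM3 had 33 and 41 reads (fold 1.18, 0.729 to 1.93), or 1.09 and 1.29 RPKM. The IFITM genes adjoin on chromosome 11 and resemble each other. Transcripts of IFITM1, IFITM2 and IFITM3 share 32.0%, 34.1% and 17.4% of their 50-base words with other genes, and exons of IFITM1 and IFITM2 overlap over 351 bases, which leaves their single levels uncertain.

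Of the other interferon-induced genes, 3 were expressed and 3 had few reads. ISG15 (chromosome 1, 1001138 to 1014541), a ubiquitin-like protein that is attached to other proteins, had 434 reads with WT and 511 with S435D, or 20.6 and 23.1 RPKM (fold 1.12, 0.983 to 1.27). IFI6, a protein that opposes apoptosis, was at 10.1 and 9.29 RPKM (fold 0.917, 0.747 to 1.13), and IFI35 at 5.10 and 5.30 RPKM. IFI27 had 23 and 39 reads, IFI44L 9 and 11, and IFI44 6 and 3. Thus ISG15 and IFIT1, which are induced together with MX1, OAS1 and IFI44L in many cells, stood at 20.6 and 7.69 RPKM with WT, where MX1, OAS1 and IFI44L had 6, 1 and 9 reads.

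The class I molecules, which show peptides to T cells, took 28257 of the 43099 member reads in the WT library and 29771 of 44596 in the S435D library. HLA-C (chromosome 6, 31268749 to 31272130, minus strand) had 15786 reads with WT and 17261 with S435D (fold 1.04, 1.02 to 1.06). HLA-B (chromosome 6, 31353872 to 31357188, minus strand), singled out after its values were seen, was at 136 and 128 RPKM, with 9159 and 9094 reads (fold 0.944, 0.917 to 0.972). Both intervals exclude 1, on opposite sides, and no replicate shows how far such values move between libraries of 1 group. HLA-C was therefore 2.07 times (WT) and 2.28 times (S435D) HLA-B per length, and 1.74 and 1.91 times with principal transcript lengths. HLA-E, which presents leader peptides to natural killer cells, was at 28.4 and 28.6 RPKM. B2M, the light chain shared by all class I molecules, was at 10.5 and 9.87 RPKM. Per length, HLA-C stood 26.9 times above B2M in the WT library, and 12.3 times when reads were divided by the length of the principal GENCODE transcript, since the deposited length of B2M is 3.57 times that transcript. HLA genes are variable and have close copies, and how reads of other alleles were assigned was not tested. Exons of HLA-B share 17.99% of their bases with a clone-named gene on the other strand.

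The genes that load class I molecules were lower with S435D in all 3 expressed cases, at a median log2 ratio of -0.16. The scalings tried shifted ratios upward by too little to turn even TAPBP, the nearest to equality at -0.047. That all 3 stayed lower under them was therefore fixed in advance. TAP2 (chromosome 6, 32821833 to 32838780, minus strand), a subunit of the peptide transporter, had 1009 reads with WT and 862 with S435D, or 7.06 and 5.74 RPKM (fold 0.812, 0.741 to 0.891). TAP1, the other subunit, was at 4.03 and 3.55 RPKM (fold 0.880, 0.763 to 1.01). TAPBP, or tapasin, which bridges the transporter and the empty class I molecule, was at 2.38 and 2.29 RPKM. Exons of TAP2 share 32.3% of their bases with a clone-named gene on the same strand, which had 840 and 713 reads; whether the same reads were counted for both was not tested. ERAP1, which trims peptides in the endoplasmic reticulum, had 157 and 175 reads and NLRC5, the transactivator of class I genes, 60 and 66, both below the filter. TAP2 was no longer past 1.2-fold with a pseudocount of 1 RPKM, when centred or under trimmed mean scaling, at a log2 ratio of -0.25 under each of the last 2.

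**Figure D4:**
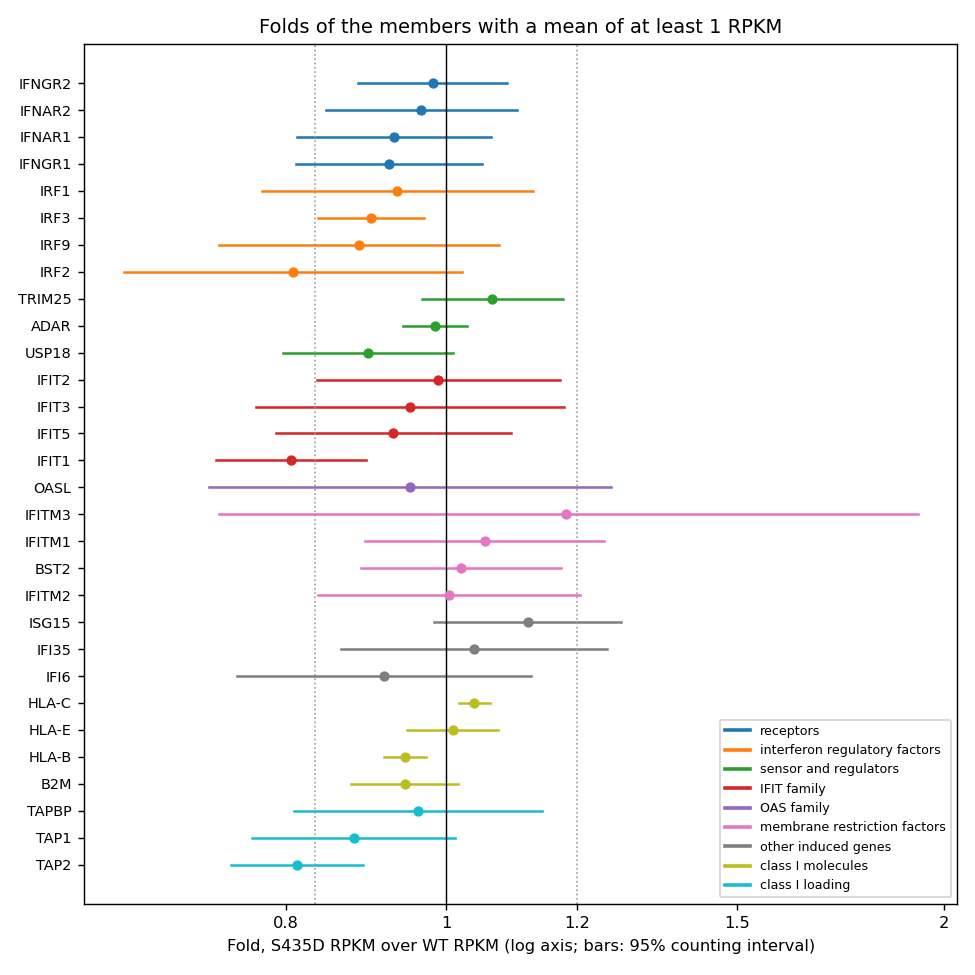
Fold of RPKM, S435D over WT (log axis), with 95% counting intervals for the 30 expressed members, grouped by role, with dotted lines at 1.2-fold. Intervals wholly below 1 are those of IFIT1, IRF3, HLA-B and TAP2, and that of HLA-C lies wholly above 1. The share of all expressed genes with such intervals was not computed. Counting intervals narrow as reads increase, so these names are no count of changed members.

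Further genes of the pathway were read from lists, of which 39 of 95 listed genes were expressed; 20 were higher with S435D and 19 lower, and the median log2 ratio was 0.0065. Of 10 listed interferon genes, 6 were in the table and none was expressed; IFNB1, the first type I interferon that cells make, had 4 reads with WT and 6 with S435D, and IFNL1 had 2 and 0. Of the 7 signal transducers, 4 were expressed, 3 higher and 1 lower, with STAT2, a part of ISGF3, at 1.65 and 1.47 RPKM (fold 0.888, 0.732 to 1.08). Of 13 sensors and adaptors, 6 were expressed, 3 in each direction as deposited. IKBKE, a kinase that activates IRF3, was at 2.54 and 3.17 RPKM (fold 1.25, 1.045 to 1.502), and MAVS, the adaptor of the RNA sensors, at 4.91 and 4.42 RPKM (fold 0.901, 0.832 to 0.975). DDX58, which encodes RIG-I, had 59 and 45 reads, TMEM173, which encodes STING, 22 and 15, and MB21D1, which encodes cGAS, 1 and 3.

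Of 41 other induced genes, 12 were expressed, of which 8 were higher and 4 lower (median log2 ratio 0.023). PARP10, an ADP-ribosyltransferase, had 127 reads with WT and 212 with S435D (fold 1.59, 1.27 to 1.99), and PLSCR1, a phospholipid scramblase, had 183 and 153 (fold 0.795, 0.637 to 0.991). RSAD2, XAF1, PARP12 and CXCL11 had at most 1 read in either library. Of 15 other class I genes, 11 were expressed, of which 4 were higher and 7 lower, at a median of -0.016 that turned to 0.0077 when centred and 0.014 under trimmed mean scaling. RFXAP, a subunit of the RFX complex that binds class I and class II promoters, was at 4.73 and 3.36 RPKM (fold 0.709, 0.582 to 0.863). PSMB10, a subunit of the immunoproteasome, was at 4.83 and 5.99 RPKM (fold 1.24, 1.03 to 1.499), while its partners PSMB8 and PSMB9 had 4 and 6 reads and 37 and 44 reads. Of 9 class II genes, 6 were expressed, 2 higher and 4 lower, with HLA-DPB1 at 4.42 and 5.03 RPKM (fold 1.14, 0.966 to 1.34) and HLA-DRA at 1.64 and 1.46 RPKM (fold 0.890, 0.577 to 1.37). Over these lists 3 genes were higher by 1.2-fold, IKBKE, PARP10 and PSMB10, and 1 was lower, RFXAP, of 39 expressed, beside 4.43% higher and 7.92% lower among all expressed genes (1.58% and 3.30% of the protein-coding ones).

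**Figure D5:**
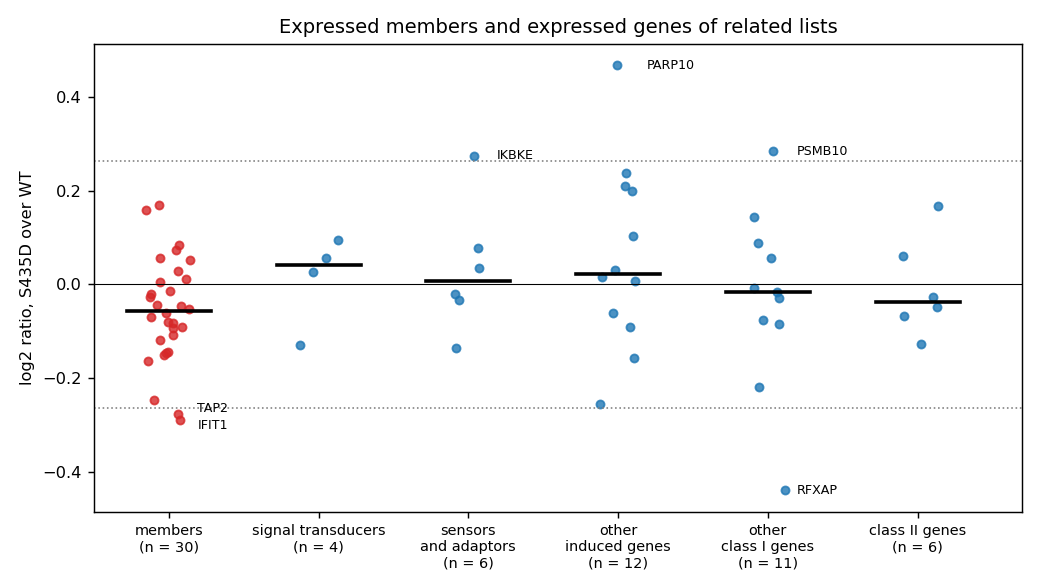
log2 ratio (S435D over WT, 0.5 RPKM added) of the 30 expressed members and of the expressed genes of 5 related lists, with list medians as bars and dotted lines at 1.2-fold. Medians lie between -0.057 for the members and 0.041 for the signal transducers, and single genes past a dotted line are named.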

How the data were processed

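RNA sequencing values of 1 library per SIK1 construct were used. The deposited table gives RPKM for each gene, with exon positions, strand and length, per the file headers; aligner, counter, strand setting, genome build and annotation are not stated there or in the labels. Multiplying RPKM by gene length gave whole steps in either library (100% of values above 0, tolerance 0.01 reads), so read numbers were recovered. Start and end equalled those in GENCODE release 29 (GRCh38) for 94.6% of 27970 genes that could be matched, including 37 of the 42 members. A single read on 2000 bases equals 0.0224 RPKM with WT and 0.0213 with S435D.

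Folds are ratios of RPKM with exact conditional Clopper-Pearson intervals (95%) on recovered reads. The log2 ratio adds 0.5 RPKM to each value, which shrinks differences at low levels. With 1 library per group, a rule of size (1.2-fold on that scale) served as a description. Exon overlaps were taken from the table, and sharing of 50-base words from GENCODE transcripts in their own orientation. The procedures were tested on simulated counts that held counting error only. Such a test does not bear on the spread between libraries. Members, lists and rules were chosen with earlier results of these data known. Folds were given for the 12 expressed members with the log2 ratio farthest from 0 and the most abundant member of each role group, and for the 2 farthest genes of each related list, of which 1 is not reported here; other members are given by levels or reads, and any further gene was picked with its values in view. Computations ran in Python 3.11.15 with pandas 2.3.3 and numpy 2.4.6, intervals came from SciPy 1.17.1, and plots from matplotlib 3.10.9.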

Additional observations from a re-analysis of the deposited data

How the results depend on the processing

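With 1 library per group, differences between libraries and between constructs cannot be told apart, and intervals hold counting error only. The median log2 ratio of the expressed members, -0.057, stayed below 0 under every setting tried: -0.026 without a filter (42 members), -0.024 for the 18 members that average 5 RPKM or more, -0.033 when centred, -0.032 under trimmed mean scaling and -0.037 relative to protein-coding genes, the last added after the data were seen. It was -0.070 over the 17 members that overlap no other gene with reads. The number of members higher was 9 as reported and 16 without a filter, where 42 genes were counted in place of 30. The number lower was 21 of 30 as reported and 10 of 18 at 5 RPKM, where 8 were higher and the members' median log2 ratio minus that of all such genes was -0.0059. The cause was not tested. The 2 members lower by 1.2-fold became 1 with a pseudocount of 1 RPKM and when centred, and 0 under trimmed mean scaling, at 1.5-fold and at 2-fold. IFI27, with 23 and 39 reads, was the 1 member higher by 1.2-fold without a filter. Of 198 values of single members under these settings, 197 moved by less than their counting interval and 1, HLA-C at 0.088 under trimmed mean scaling, did not. A filter leaves a single gene's ratio unchanged, and a scaling shifts all ratios by nearly the same amount. That count was thus largely fixed in advance and is no measure of stability. No paired analysis was possible because each group has 1 library.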
